A study of Mus musculus with 6 samples.

Results

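The 10 genes described here encode 8 receptors and 2 partners that are not receptors. Mertk, Cd36, Scarb1, Msr1, Fcgr1, Fcgr2b and Fcgr3 bind material that microglia can take up, and C3ar1 binds the complement fragment C3a. The partners are the signalling protein Vav1 and the complement subunit C1qc. A peak was counted for a gene when its midpoint lay inside the gene's span, or when an end of that gene was the nearest end of any protein-coding gene and lay within 100 kb. By this rule 15 of the 12105 listed peaks belonged to the 10 genes. All 15 lay inside or nearest their own gene, and none lay inside another coding gene. The genes were chosen by function, with earlier results of these data known.

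Microglia, the macrophages that reside in the brain, clear dying cells through phosphatidylserine receptors such as Mertk, lipids and protein aggregates through scavenger receptors, and antibody-coated or complement-tagged material through Fc and complement receptors. Engulfment needs a rearrangement of actin, to which Vav-family signalling proteins contribute.

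The assay was ATAC-seq, which reads out open chromatin from the sites where Tn5 transposase can cut and tag DNA. It was run on sorted primary microglia from C57BL/6J mouse brain, with an age of 8 weeks in the labels. Both genotypes carried Tmem119-CreERT2, a recombinase expressed from the microglial gene Tmem119 and activated by tamoxifen, and received tamoxifen on 7 consecutive days from 7 to 8 weeks of age; the conditional knockout (cKO) was Mir137loxP/loxP;Tmem119-CreERT2 and the control (cWT) Mir137+/+;Tmem119-CreERT2. Each genotype had 3 libraries of about 50000 cells each, and the series states 4 mice but not which library came from which. For each genotype the deposited data were a list of the peaks specific to it, 8615 for cKO and 3490 for cWT. The lists give nothing per library, so depth and replicate spread are unknown and no test of genotype was possible. A peak listed for 1 genotype may also reflect a change in which cells were sorted, and this cannot be told apart from a change within microglia.

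The deleted microRNA, miR-137, pairs with target RNA through its seed, bases 2 to 8. Its main mature strand is shown with the seed in capitals, and 3 promoters follow because listed peaks touch or flank them. Each window runs 5′ to 3′ on the gene's strand, from 250 bases before the annotated transcription start to 50 bases from it onwards, and comes from RefSeq on GRCm38.p6, the assembly of the peak lists (mm10). At Fcgr2b (chr1:170976022-170976321, minus strand) capitals mark the 192 bases that lie inside a cKO-specific peak. At Vav1 (chr17:57278850-57279149, plus strand), between a cKO-specific and a cWT-specific peak, and at C1qc (chr4:136892865-136893164, minus strand), just downstream of a cWT-specific peak, capitals mark matches to the motifs searched below.
mmu-miR-137-3p: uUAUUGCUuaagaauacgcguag
Fcgr2b: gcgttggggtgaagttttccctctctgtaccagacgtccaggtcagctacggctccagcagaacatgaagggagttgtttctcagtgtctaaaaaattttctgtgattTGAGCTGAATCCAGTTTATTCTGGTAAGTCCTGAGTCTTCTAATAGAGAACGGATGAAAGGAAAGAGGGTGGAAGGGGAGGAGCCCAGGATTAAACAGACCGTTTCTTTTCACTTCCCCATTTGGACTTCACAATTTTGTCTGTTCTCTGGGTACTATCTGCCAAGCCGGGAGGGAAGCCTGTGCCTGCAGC
Vav1: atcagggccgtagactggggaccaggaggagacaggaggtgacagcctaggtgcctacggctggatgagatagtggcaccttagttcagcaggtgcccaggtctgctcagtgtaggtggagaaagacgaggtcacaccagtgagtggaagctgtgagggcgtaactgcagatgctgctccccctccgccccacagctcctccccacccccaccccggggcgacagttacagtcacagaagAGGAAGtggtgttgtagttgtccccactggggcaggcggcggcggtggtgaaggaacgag
C1qc: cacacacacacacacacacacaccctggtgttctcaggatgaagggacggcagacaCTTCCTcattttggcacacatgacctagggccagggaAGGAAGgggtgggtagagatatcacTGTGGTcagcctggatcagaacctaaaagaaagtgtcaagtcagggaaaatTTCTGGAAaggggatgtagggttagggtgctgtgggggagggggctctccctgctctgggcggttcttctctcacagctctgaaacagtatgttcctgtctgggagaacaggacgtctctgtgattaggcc

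Most peaks at these genes were cKO-specific, as were most peaks of the series. The 10 genes held 11 cKO-specific and 4 cWT-specific peaks, so 73.3% were cKO-specific (exact Clopper-Pearson 95% interval 44.9% to 92.2%, counting error only). Over all 11013 peaks assigned to a coding gene the share was 71.7% (70.9% to 72.6%), which lies inside that interval. The cKO-specific peaks fell on 7 of the 10 genes, whereas 23.8% of 21896 coding genes had at least 1. The cWT-specific peaks fell on 3 of the 10, against 12.3% of coding genes. Peaks of both lists were thus found at these genes more often than at an average coding gene. That background covers all coding genes, including those closed in microglia.

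The genes fell into groups by their peaks. Cd36, Fcgr1, Fcgr2b, Msr1 and Scarb1 had cKO-specific peaks and no cWT-specific peak. Of 21896 coding genes, 5216 had a cKO-specific peak and 2699 a cWT-specific peak, and 1483 had peaks of both lists. Mertk and Vav1 had peaks of both lists, which 6.77% of coding genes had, and C1qc had 1 cWT-specific peak and no cKO-specific peak. Neither Fcgr3 nor C3ar1 had a listed peak; 29.4% of coding genes had at least 1 of either list. Scarb1 (3), Msr1 (2) and Fcgr2b (2) had 2 or more cKO-specific peaks, as did 9.02% of coding genes, and Vav1 had 2 cWT-specific peaks, as did 2.81%.

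**Figure D1:**
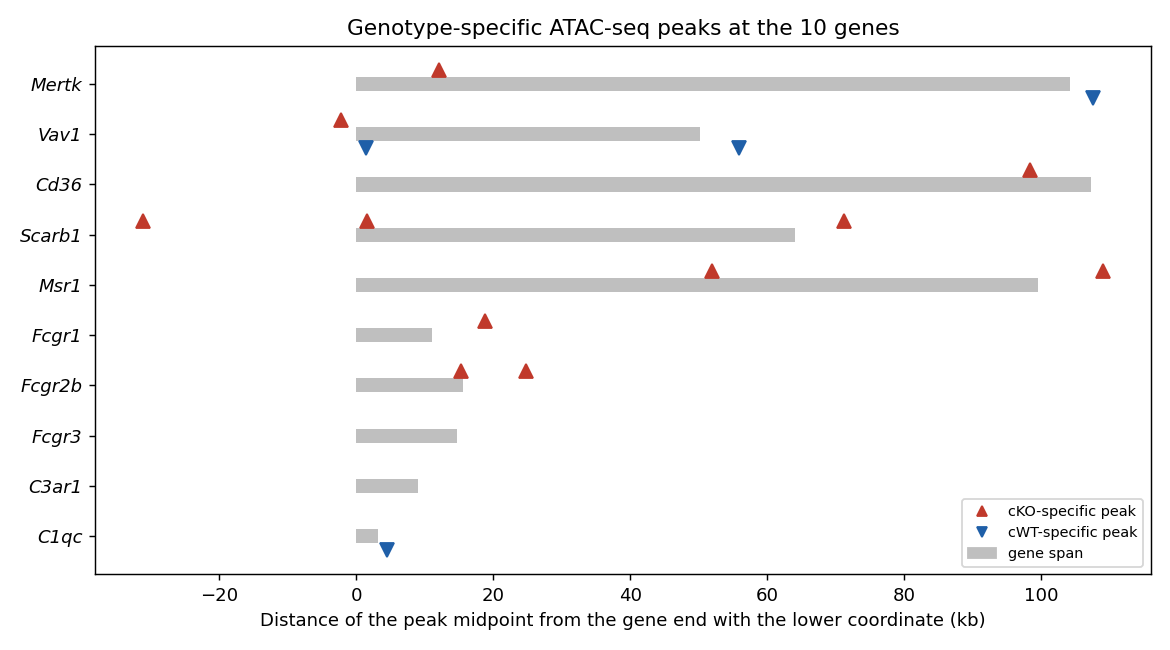
Each row is 1 gene, drawn as a grey bar from its end with the lower coordinate, with the midpoints of its genotype-specific peaks on an x axis in kb. Upward red triangles are the 11 cKO-specific peaks and downward blue triangles the 4 cWT-specific peaks; the Fcgr3 and C3ar1 rows are empty, and the blue triangles stand at Mertk, Vav1 and C1qc.

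The genes differ in how much DNA the rule gives them, from 6.43 kb for C1qc to 300 kb for Msr1. Per megabase of this territory the 10 genes held 11.0 cKO-specific and 4.00 cWT-specific peaks. Over all coding genes it was 4.37 and 1.76. The higher density at the 10 genes was therefore seen in both lists and not in the cKO list alone. Of the 15 peaks 12 lay within 10 kb of an end (80.0%, exact 95% interval 51.9% to 95.7%, counting error only), beside 48.1% of all assigned peaks. Inside a coding gene lay 6 of 15 (exact 95% interval 16.3% to 67.7%), and the 61.4% of all assigned peaks is within that interval. Both intervals treat the 15 peaks as separate draws, although several share a gene and the genes were chosen with earlier results known. The difference in position was therefore not tested.

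Among the receptors for dying cells, Mertk had 1 peak of each list at opposite ends of the gene. Mertk is a receptor tyrosine kinase that recognises phosphatidylserine on dying cells through the bridging proteins Gas6 and protein S (gene at chr2:128698915-128803162). The cKO-specific peak, chr2:128710814-128711050, lay inside the gene with its midpoint 12017 bp downstream of the transcription start. It was weak within its list, with the authors' signal at 8.98 and higher than 7.59% of cKO-specific peaks, and a p-value of 0.929. The cWT-specific peak, chr2:128806276-128806647, lay 3299.5 bp beyond the other end of the gene, 107546 bp downstream of the start. Its signal was 22.4, in the upper part of the cWT list (percentile 85.9), with a p-value of 0.547. The 2 peaks were 95225 bp apart, so they mark separate regions of the locus. The promoter window of Mertk (66.0% G and C) was touched by neither.

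Vav1, a guanine nucleotide exchange factor of blood-cell lineages that acts downstream of Fc receptors and integrins, was the gene with the most cWT-specific peaks of the 10 (gene at chr17:57279100-57329236). A cKO-specific peak, chr17:57276701-57277117, had its midpoint 2191 bp upstream of the transcription start, with a signal of 10.8 (percentile 17.8) and a p-value of 0.626. A cWT-specific peak, chr17:57280436-57280678, had its midpoint 1457 bp downstream of the start, inside the gene, with a signal of 9.08 (percentile 13.0) and a p-value of 0.840. The lists thus placed a peak of low signal on either side of the same promoter, 3318 bp apart, cKO-specific upstream and cWT-specific downstream. By p-value they ranked higher, as number 1801 of 8615 in the cKO list and number 1285 of 3490 in the cWT list. The second cWT-specific peak, chr17:57334857-57335097, lay 5741 bp past the far end of the gene, with a signal of 15.9 (percentile 61.4). Its p-value of 0.476 was the lowest of the 4 cWT-specific peaks at these genes. In the authors' names of the cWT-specific peaks the pair held numbers 12140 and 12143, so 2 numbers between them are not in the specific list.

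The peaks assigned to the scavenger receptor genes were all cKO-specific, 6 over 3 genes. Cd36 encodes a class B scavenger receptor for oxidised lipoprotein, fatty acids and fibrillar amyloid (chr5:17781690-17888959). Its single peak, chr5:17879960-17880252, lay inside the gene 8853 bp from its upstream end, with a signal of 12.4 (percentile 27.0) and a p-value of 0.933. The promoter in the RefSeq table is an internal start of this gene, and the peak lay 44210 bp upstream of it. No other listed peak lay within 100 kb of Cd36. Just beyond that limit, a cWT-specific peak, chr5:18013296-18013916, lay 124647 bp away.

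Scarb1, the receptor that takes up cholesterol from high-density lipoprotein, had the most cKO-specific peaks of the 10 genes (chr5:125277087-125341094). One lay at chr5:125278501-125278711, inside the gene and 1519 bp from its lower end. It was among the weakest of its list, with a signal of 6.12 (percentile 0.511) and a p-value of 0.976. The other 2 were flanking and stronger. The peak chr5:125348112-125348526 lay 7225 bp past the higher end, with a signal of 20.9 (percentile 74.3) and a p-value of 0.795. The peak chr5:125245819-125246090 lay 31132.5 bp below the lower end, with a signal of 18.6 (percentile 62.8) and a p-value of 0.813. Its midpoint was inside Gm32585, an annotated long noncoding RNA gene, whose end was nearer (6452.5 bp) than that of Scarb1. The 3 peaks held 3 of 5 consecutive numbers in the authors' cKO peak names, over 102708 bp. Within 100 kb of Scarb1 there were also 3 cWT-specific peaks nearer other genes, the closest 27639 bp away, which is less than the distance of the farthest cKO-specific peak assigned to Scarb1.

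Msr1, the class A scavenger receptor for modified lipoprotein and other polyanions, had 2 of the stronger cKO-specific peaks (chr8:39543232-39642750). The peak chr8:39595049-39595305 lay near the middle of the gene, 47573 bp from the nearer end, with a signal of 31.5 and a p-value of 0.430. The peak chr8:39652079-39652294 lay 9436.5 bp past the gene's higher end, with a signal of 30.0 and a p-value of 0.523. Both signals were high within the cKO list, at percentiles 95.4 and 94.0. Both peaks were narrow, 257 and 216 bp against a list median of 314 bp. No cWT-specific peak lay within 100 kb of Msr1, the nearest being 244696 bp away.

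The Fc receptor genes held 3 cKO-specific peaks and no cWT-specific peak. Fcgr1 encodes the high-affinity receptor for IgG (chr3:96282909-96293969), and its peak ranked highest of all 15. The peak chr3:96301515-96301776 lay 7676.5 bp upstream of the transcription start, outside any annotated gene, with a signal of 36.8 (percentile 98.1). Its p-value of 0.0828 was number 41 of 8615 in the cKO list. It was the only one of the 15 that the authors named primary, a name 243 cKO-specific peaks carry. Its adjusted p-value in the authors' deposited table was 0.689, and no other listed peak lay within 100 kb of the gene.

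Fcgr2b encodes the inhibitory low-affinity IgG receptor, whose cytoplasmic motif dampens signals from activating receptors (chr1:170960558-170976071). It was the only one of the 8 members with a promoter window in the RefSeq table whose window a listed peak touched. Of 17491 coding genes with a window, 2.92% had one overlapped by a cKO-specific peak and 1.47% by a cWT-specific peak. The peak, chr1:170975516-170976213, was 698 bp wide, wider than 96.4% of cKO-specific peaks, and it covered the transcription start. Its midpoint was 206.5 bp downstream of the start, its signal 22.5 (percentile 80.3) and its p-value 0.513. The second Fcgr2b peak, chr1:170985179-170985501, lay 9269 bp upstream, inside the long noncoding RNA gene Gm10522, with a signal of 11.6 (percentile 22.6) and a p-value of 0.944. The pair held consecutive numbers, 1747 and 1748, in the authors' cKO peak names.

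Fcgr3 encodes an activating low-affinity IgG receptor and lies in the same cluster (chr1:171051169-171065915). It had no listed peak of its own. Within 100 kb of it the rule gave cKO-specific peaks to other genes, among them 2 to Fcgr2b, 1 to Fcgr4 and 1 to Cfap126. The Fcgr4 peak, chr1:171006860-171007183, had a signal of 26.6 (percentile 89.4) and lay between Fcgr2b and Fcgr3, 44147.5 bp from Fcgr3. The cluster between Fcgr2b and Fcgr3 therefore held cKO-specific peaks only, and the nearest cWT-specific peak, chr1:170907960-170908195, was assigned to Fcrlb, 52480.5 bp from Fcgr2b. These receptor genes are related in sequence, and the sources used here do not say how reads mapping to several places were treated. The promoter windows of Fcgr2b and Fcgr3 were 50.3% identical in a global alignment, within the range of 43.7% to 51.5% over all pairs of members. This covers promoter windows only and does not measure how uniquely reads map in the cluster.

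**Figure D2:**
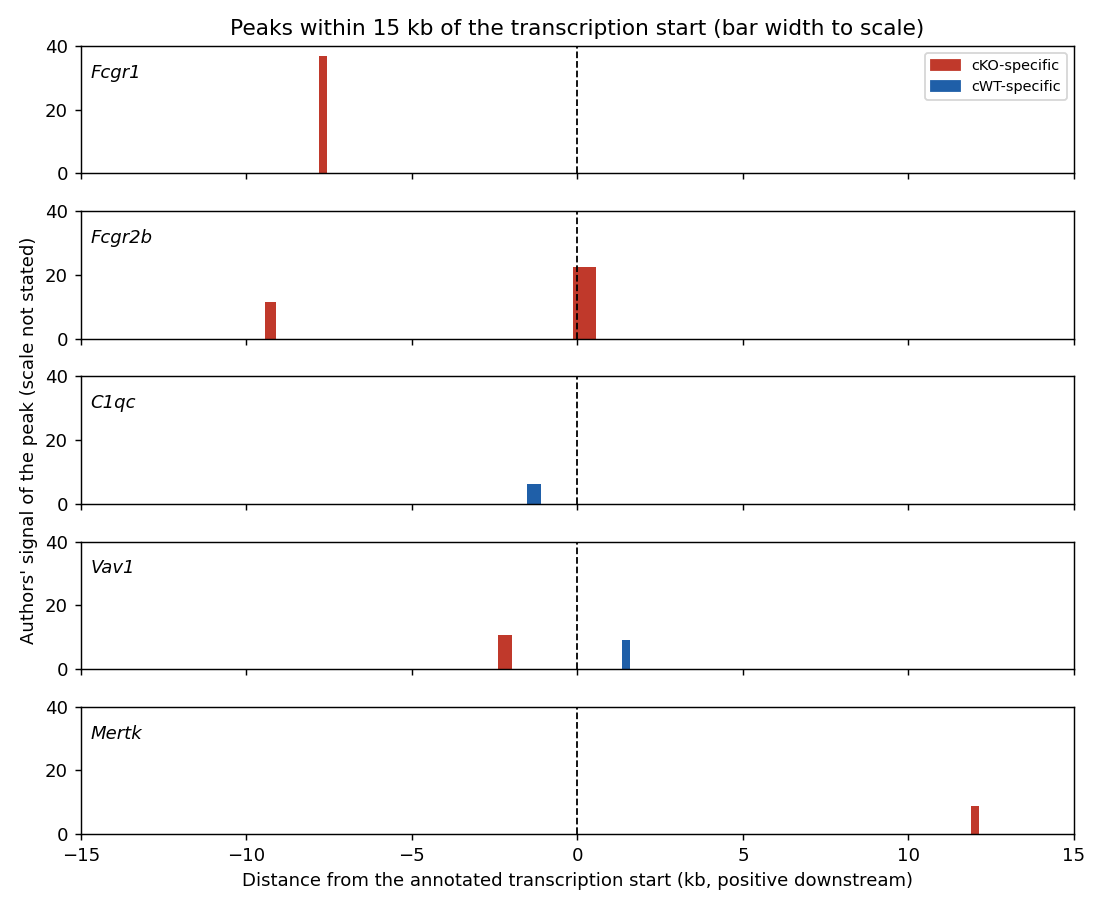
Bars show peaks at 5 genes by distance of the midpoint from the annotated transcription start (kb, positive downstream), with the bar width to scale and the height giving the authors' signal, whose scale is not stated. The Fcgr2b peak alone covers a start, the Fcgr1 bar is the tallest at 36.8, and the Vav1 start lies between a cKO-specific and a cWT-specific bar.

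The complement members had 1 peak in all. C1qc encodes the C chain of C1q, which starts the classical complement pathway and tags synapses and debris in the brain (chr4:136889801-136892936). A cWT-specific peak, chr4:136894017-136894429, had its midpoint 1309 bp upstream of the transcription start. It was among the weakest of the cWT list, with a signal of 6.23 (percentile 0.688) and a p-value of 0.928. At the other side of C1qc, a cKO-specific peak, chr4:136878449-136878697, was assigned to the neighbouring C1qb gene, 11228 bp from C1qc, with a signal of 18.2 (percentile 60.7) and a p-value of 0.930. The C1q cluster thus carried 1 peak of each list, 15319 bp apart.

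C3ar1 encodes the receptor for the complement fragment C3a, a chemoattractant for microglia (chr6:122847140-122856157). No listed peak was nearest to it. The closest were a cWT-specific peak, chr6:122828133-122828430, 18858.5 bp away and assigned to Foxj2, and a cKO-specific peak, chr6:122892525-122892933, 36572 bp away and assigned to Necap1. The territory of C3ar1, 19.1 kb, is the second smallest of the 10, after that of C1qc.

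The values deposited per peak differed widely at these genes in both lists. Signals of the 11 cKO-specific peaks ran from 6.12 to 36.8 with a median of 18.6, beside a list median of 16.5. The 4 cWT-specific peaks ran from 6.23 to 22.4 with a median of 12.5, beside 13.7. Thus 8 of the 15 lay above the median signal of their own list, and 3, at Fcgr1 and Msr1, above its 90th percentile. P-values were up to 0.5 for 3 of the 15, at Fcgr1, Msr1 and Vav1. Over the whole lists this held for 1042 of 8615 cKO-specific and 215 of 3490 cWT-specific peaks. No adjusted p-value of the 15 was under 0.05, nor was any in the authors' deposited table, where the lowest were 0.194 in cKO and 0.231 in cWT. The test behind these p-values is not stated, so they order peaks within a list and do not measure a difference between genotypes. None of the 15 peaks overlapped a peak of the other list. The same share over all listed peaks was not computed, so this is not a trait particular to these genes.

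**Figure D3:**
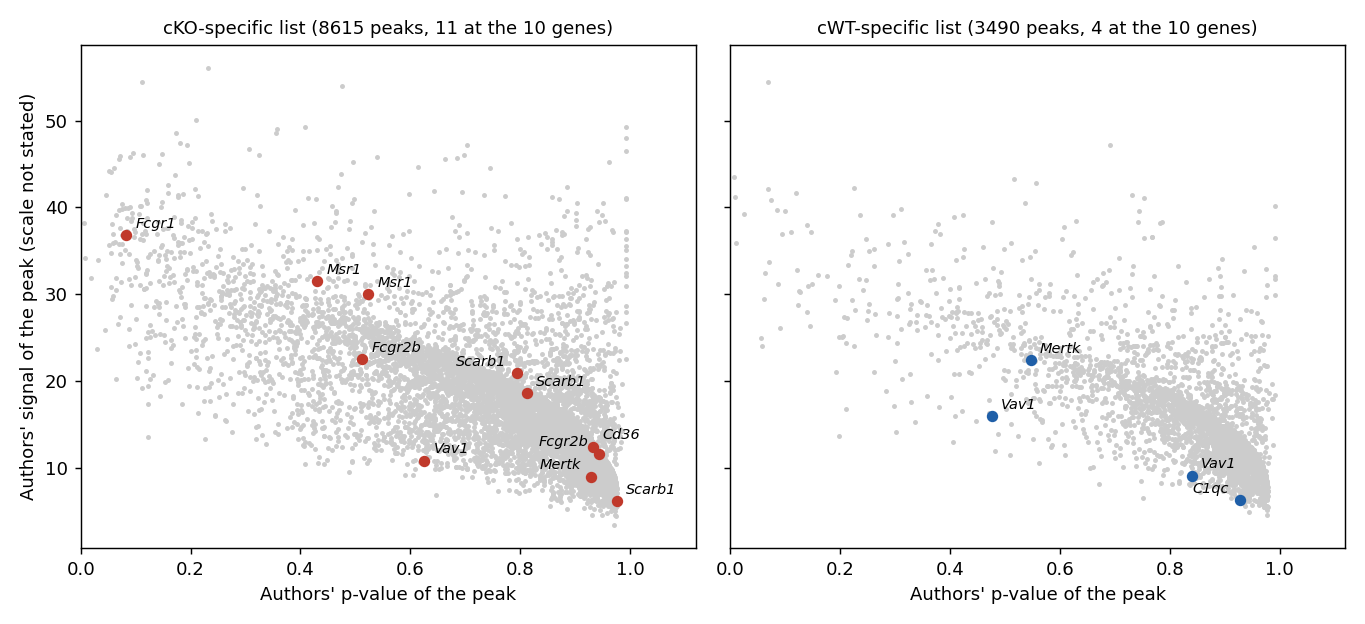
Each grey point is a peak of the cKO-specific list (left) or the cWT-specific list (right), with the authors' p-value on the x axis and the authors' signal, of unstated scale, on the y axis; coloured points are the peaks of the 10 genes. Fcgr1 stands apart at the upper left at a p-value of 0.0828, and most other points lie at p-values above 0.5.

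The promoter windows of 8 members (all but Msr1 and Scarb1) were searched on both strands for 6 short motifs of factor families active in macrophages, and for the DNA match to the miR-137 seeds. The ETS core AGGAAG, contained in sites of the macrophage factor PU.1, was found in 5 of the 8 (C1qc, C3ar1, Fcgr1, Fcgr3 and Vav1), against 37.8% of 17491 coding genes with a window. In the Vav1 window it begins 10 bases before the transcription start. The C1qc window held 2 matches, and the Fcgr1 window held 2 that overlap each other; no match of 1 motif overlapped that of another. The only AP-1 match (TGANTCA, in 8.12% of genes) was TGACTCA in the C3ar1 window, beginning 22 bases before the start. A RUNX match (TGTGGT, 17.2%) was found at C1qc alone, and the C/EBP pattern TTNNGNAA (41.4%) at C1qc, Cd36 and Fcgr3. The IRF pattern, a pair of GAAA with 2 bases between them (3.94%), the E-box CACGTG (8.91%) and the seed matches AGCAATA of miR-137-3p (1.97%) and ATACCCG of miR-137-5p (0.629%) were in none of the 8. A seed pairs with RNA and these windows are promoter DNA. The missing seed matches therefore do not show whether the RNA of a member is a target. The Fcgr2b window, the one partly inside a peak, held none of these motifs.

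Wider lists of phagocytosis genes, 93 genes that are not among the 10, were set beside them. Of these 39 (41.9%) had a cKO-specific peak and 19 (20.4%) a cWT-specific peak, with 89 and 24 peaks in all and a median of 0 peaks per gene in either list, as over all coding genes. The lists were written with earlier results known, and no test was made on them. Shares of genes with a peak were not adjusted for territory, which differs widely among these genes. The part of territory in the shares was not tested.

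By the share of genes with a peak, signalling genes that drive engulfment and inhibitory genes were covered more often than the average coding gene in both lists. Some signalling genes have large territories, such as Elmo1 (710721 bp) and Dock1 (625710 bp), and others small ones, such as Rac2 (30648 bp). The median over all coding genes was 49.5 kb. Of 20 signalling genes, 13 had a cKO-specific and 9 a cWT-specific peak, with a median of 1 and 0. Wasf2, an actin regulator of the WAVE complex, had 6 cKO-specific peaks and no cWT-specific peak. Vav2, a relative of Vav1, had 4 and 0, and Elmo1, which with Dock proteins activates Rac, had 4 and 2. Lyn, a Src-family kinase below Fc receptors, had 3 and 2. Among 10 inhibitory receptors and phosphatases, 6 had a cKO-specific and 3 a cWT-specific peak. Inpp5d, the lipid phosphatase SHIP1 recruited by Fcgr2b, had 5 and 0, and the inhibitory receptor genes Cd300a and Lair1 had 2 and 0 each. Cd300lf and Pirb had 0 and 1 each.

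Receptor genes outside the 10 were covered less evenly. Among 12 other scavenger receptor genes 5 had a cKO-specific peak and 1, Scarb2, a cWT-specific peak. Scarb2, which encodes a lysosomal relative of Cd36, had 2 and 2, Colec12 had 2 and 0 and Cd5l had 1 and 0. Among 16 efferocytosis genes 6 had a cKO-specific and 3 a cWT-specific peak. These were led by Itgb5 (6 and 1) and Itgav (4 and 0), which encode integrin chains that bind dying cells through Mfge8, and by Lrp1 (4 and 0); Itgb3 had 3 and 2 and Havcr2 0 and 1. Of the Mertk bridging proteins, Pros1, which encodes protein S, had 3 and 0, and Gas6 had no listed peak; Axl and Tyro3, the relatives of Mertk, had none either.

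Other Fc receptor and complement genes were close to the background in the cKO list. Of 11 further Fc receptor genes and chains, 3 had a cKO-specific peak (27.3%) and 2 a cWT-specific peak. Fcgrt, the neonatal Fc receptor gene, had 2 and 0, Fcgr4 and Fcrls had 1 and 0 each, and Fcamr and Fcrl1 had 0 and 1 each. Of 24 other complement genes, 6 had a cKO-specific peak (25.0%) and 1 a cWT-specific peak (4.17%). Of the 12 cKO-specific peaks there, 8 were at Itgam (5 and 1) and Itgb2 (3 and 0), whose products form complement receptor 3, and C1qb had 1 and 0.

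**Figure D4:**
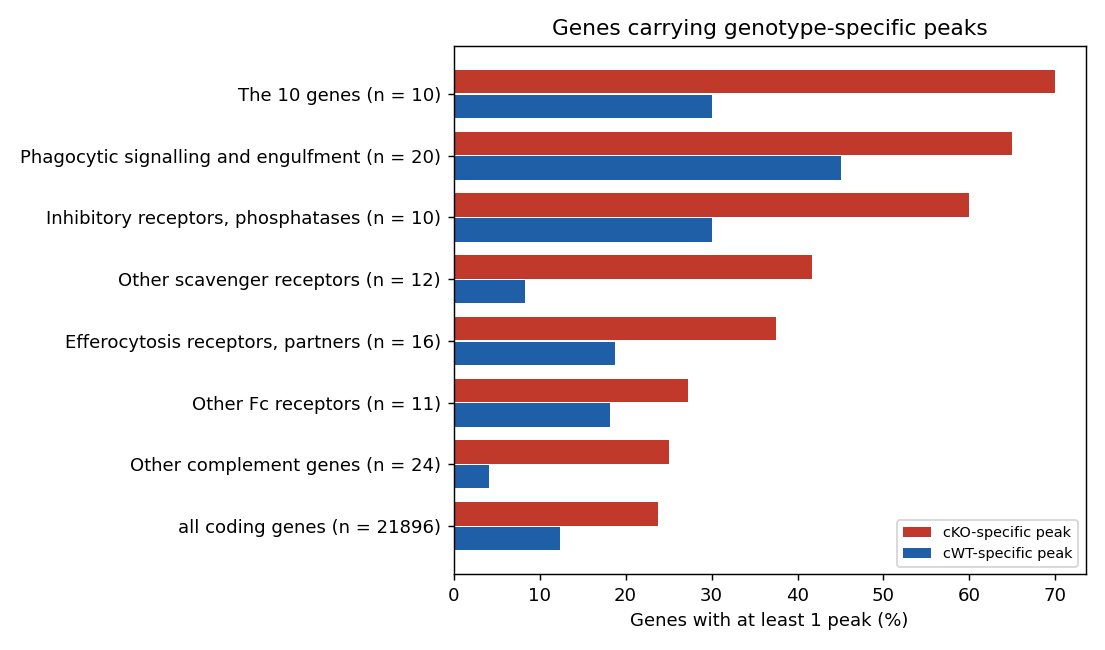
Bars give the percent of genes with at least 1 cKO-specific peak (red) or cWT-specific peak (blue) in each group, with the number of genes in brackets. The 10 genes are at 70.0% and 30.0%, the signalling genes at 65.0% and 45.0%, and other complement genes at 25.0% and 4.17%. All coding genes are at 23.8% and 12.3%. The percentages are not adjusted for territory.

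The sorted cells are labelled as microglia, and 7 of 10 microglial marker genes had a cKO-specific and 3 a cWT-specific peak; Aif1, Csf1r and Cx3cr1 had neither. Marker genes of other cells also carried listed peaks, 15 of 29 in cKO and 8 of 29 in cWT. Border macrophages and monocytes, which share several of the 8 receptors, had 3 of 8 in each list. The cKO-specific and cWT-specific counts were 3 and 0 peaks at Plac8, 1 and 1 at Ccr2 and 1 and 0 at Lyve1. They were 0 and 1 at Mrc1 and at Pf4, with none at Cd163, Cd209f and Ly6c2. B cells, which use Fcgr2b, had 1 of 4 and 0 of 4, and endothelium, which uses Scarb1 and Cd36, 4 of 5 and 2 of 5. A listed peak near a marker gene does not measure how many such cells were present. The part of other cells in the peaks of the 10 genes was not tested.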

How the data were processed

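ATAC-seq peaks of 6 libraries, 3 cKO and 3 cWT by their titles, were analysed from 2 genotype-specific lists. The submitters' processing notes name GRCm38 (mm10) and the tools HOMER 4.11, MACS2 2.2.7.1 and Bowtie2 2.4.4. The role of each tool, any transposase shift, the pooling of replicates and the choice of specific peaks are not given in the labels used here. No scale is stated for the deposited signal. The p-value and adjusted p-value the authors deposited were read from their layout in the headerless lists. The score the authors deposited equals -125 times log2 of the p-value, rounded down, in all peaks. A deeper library set can lengthen a list, and this cannot be corrected here.

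Peak midpoints were assigned to 21896 protein-coding genes of a RefSeq table (GRCm38.p6) that gives spans without exons, so exon, intron and UTR classes were not assigned. The assignment was tested on simulated peaks. A percentile is a rank within the peak's own list. Peak numbers in the authors' names rise with position on every chromosome, and what they count is not stated. The named genes were the 10 members and, in each wider list, the leading 3 genes by cKO-specific peaks and the leading 2 by cWT-specific peaks, where they had any, ties in alphabetical order; Axl, Tyro3, Gas6, Pros1 and the genes beside members were named after their values were seen. Some neighbouring genes are not reported here. The members and lists were chosen with earlier results of these data known, and no set test was made. Alternatives covered distance, gene set, p-value, score, merging within 500 bp and overlap with the other list. Python 3.11.15, numpy 2.4.6, pandas 2.3.3, scipy 1.17.1, Biopython 1.88 and matplotlib 3.10.9 were used.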

Additional observations from a re-analysis of the deposited data

How the results depend on the processing

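The 5 results on the 10 genes, with 11 cKO-specific and 4 cWT-specific peaks, a cKO share of 73.3%, and 7 and 3 genes with a peak, were recomputed under 7 alternatives. The counts moved by less than 1.5 times with a 10 kb limit and with the nearest end among all annotated genes (9 and 4 peaks). In the latter the 2 lost peaks were nearer Gm10522 and Gm32585. Merging peaks within 500 bp and leaving out peaks that overlap the other list could not change the counts. No peak of the 10 genes overlapped the other list, and the closest peak of the same list was 8965 bp away. With midpoints inside the gene only, the counts were 5 (cKO) and 1 (cWT), the latter on 1 gene. Limiting the p-value to 0.5 left 2 cKO-specific peaks on 2 genes and 1 cWT-specific peak on 1 gene. Keeping peaks with a score no lower than their list's median left 7 cKO-specific peaks. These filters keep fewer peaks by construction. The cKO share ran from 66.7% (2 cKO-specific and 1 cWT-specific peak, p-value limit) to 83.3% (5 and 1, inside the gene only). All alternatives drew on the same few peaks, so this range does not show how stable the share is. No paired analysis was possible because the lists give nothing for single libraries, and for the same reason no replicate could be left out. The number of reads behind a peak is unknown, so a gene without a listed peak, such as Fcgr3 or C3ar1, may still be accessible in either genotype.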

Other observations

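Close pairs of a cKO-specific and a cWT-specific peak were looked for at the leading genes of the wider phagocytosis lists only. The rest of the 93 genes were not searched. At 2 of the leading genes such peaks lay almost side by side. How often this occurs over all coding genes was not computed. At Itgam, which encodes the integrin chain CD11b, the cKO-specific peak chr7:128058625-128059171 (signal 20.5) and the cWT-specific peak chr7:128059174-128059377 (10.4) were 2 bp apart. At Lyn, the cWT-specific peak chr4:3695372-3695582 (signal 13.6) and the cKO-specific peak chr4:3695588-3695830 (15.6) were 5 bp apart. No such pair occurred at the 10 genes, where the closest peaks of different lists were those 3318 bp apart at Vav1. The cWT-specific peak 443 bp from an end of Scarb2, chr5:92505942-92506258, had a signal of 27.4 (percentile 93.7) and a p-value of 0.207, a higher rank in its list than any cWT-specific peak of the 10 genes.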
